A study of Arabidopsis thaliana with 4 samples.

Results

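The genes described here encode prenylated Rab acceptors (PRA1 proteins), a Rab GTPase and a SNARE of Arabidopsis thaliana. They were chosen by name: each has a symbol that begins, after an optional AT, with PRA1, PRA and a digit, RAB, SYP or VAMP in the array's probe table or in the RefSeq gene table, and has a probe set assigned to it alone. Of 13356 genes with such a probe set, 13 met the rule, each with 1 probe set. They were 11 PRA1 genes, the Rab GTPase gene RAB6A and the syntaxin gene ATSYP24. The RefSeq table lists 103 symbols that fit, of which 18 are PRA1, 50 RAB, 24 SYP and 11 VAMP. The 13 genes therefore cover most of the PRA1 family, 1 Rab gene, 1 SYP gene and no VAMP gene. A further Rab gene, ARA6, is given for comparison, and the other genes of the Rab, SYP and VAMP families were not analysed here.

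Rab GTPases are small switch proteins that mark membranes and recruit the machinery by which vesicles are moved, tethered and fused. They carry a lipid tail, and PRA1 proteins are small membrane proteins, first known in yeast and mammals, that bind such lipid-modified Rabs and help to place them on membranes. SNAREs, among them the SYP (syntaxin) and VAMP families, pair between a vesicle and its target and drive the fusion itself. In roots this traffic carries wall material, wall enzymes and transporters to the surface of growing cells and cargo to the vacuole.

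Roots of 3-week-old seedlings of the laboratory accession Col-0 were profiled on 4 Affymetrix arrays, in 2 groups of 2 biological replicates. In the low oxygen group, plants stood for 5 hours in dark canisters that had been flushed with gas containing 0.1% oxygen and then sealed. In the normal oxygen group, plants stood for the same 5 hours in foil-covered canisters that were not sealed. Both groups had first spent 24 hours in liquid medium with 3% sucrose, and 5 seedlings of a single dish were pooled for every replicate. Flushing and sealing went with low oxygen in both replicates, so their effects and that of oxygen cannot be told apart. In whole roots, fewer cells of a type and less RNA per cell cannot be told apart either.

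Values are log2 RMA expression values, so a step of 1 is a 2-fold step, and array medians lay between 6.33 and 6.36. Precision was limited by there being 4 arrays. Of 20 genes known to respond to low oxygen, 9 were measured by name, and 9 of 9 were higher at low oxygen, by 1.90 to 7.39 on the log2 scale. The root marker PYK10, a beta-glucosidase gene, stood at 12.84 and 12.90 at low oxygen and at 13.41 and 13.66 at normal oxygen. Of 9 shoot markers only the Rubisco activase gene RCA was measured, at 8.14 and 8.37 against 7.11 and 6.79. None of the 3 markers of endodermis and stele was measured by name.

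At low oxygen, transcripts of 7 of the 13 genes fell, 0 rose and 6 did not pass the test (limma, adjusted p under 0.05 over all probe sets). The 7 were PRA1.B6, PRA1.B4, PRA1.G1, PRA8, PRA1.G2, PRA1.A1 and RAB6A. Among all 22746 probe sets, 33.4% passed, 17.6% as lower and 15.8% as higher, and among named genes 16.3% were lower, against 53.8% of the 13. Of the 13 genes, 11 averaged at least 6 in their higher group, as did 6930 of 13356 named genes. In a fit of the 13068 probe sets at that level alone, 3462 were lower, among them 7 of the 11. The 13 genes were chosen with earlier results of these data known, and their difference from all genes was not tested. An unadjusted p under 0.05 was found for 9 of the 13 genes, of which 1, PRA1.H, was higher. It was found for 9482 of all 22746 probe sets, of which 4504 were higher. The 2 low oxygen arrays lay below both normal oxygen arrays for 11 of the 13 genes and above them for 2, whereas groups did not overlap for 64.5% of all probe sets, and 33.1% were lower without overlap. The 11 include PRA1.F1 and the 2 include ATSYP24, which both averaged under 6 in each group. The median log2 change of the 13 was -0.34, and that of all named genes was -0.002. The calls of PRA1.G2, PRA1.A1 and RAB6A ended without low oxygen replicate 1, and likewise without low oxygen replicate 2. Those of PRA1.B6, PRA1.B4, PRA1.G1 and PRA8 held each time. Fewer of all probe sets were lower in these fits as well.

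**Figure D1:**
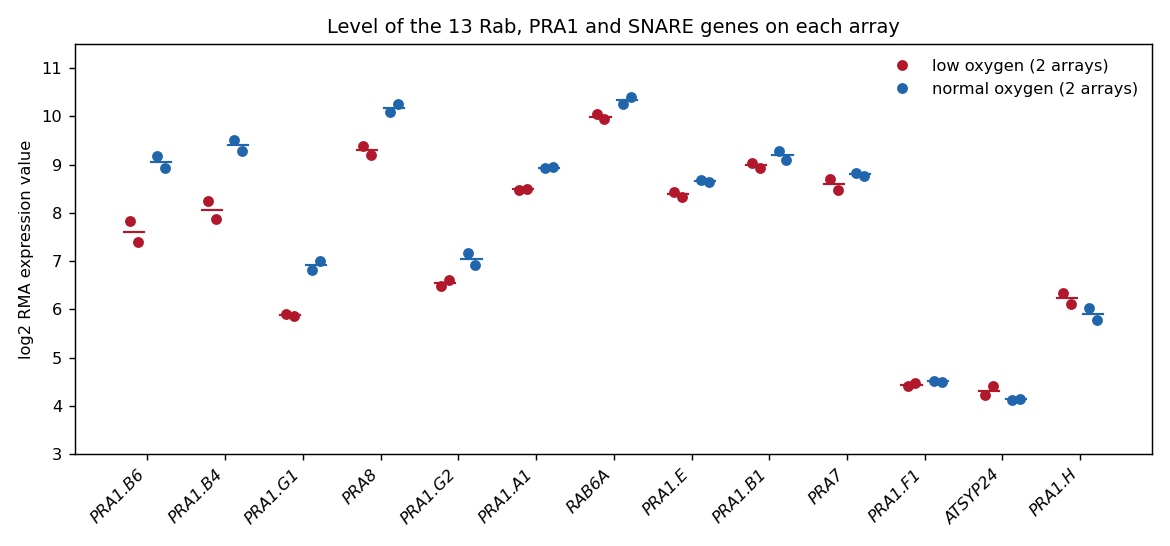
Level of each of the 13 genes (log2 RMA value, vertical axis) on the 2 low oxygen arrays (red) and the 2 normal oxygen arrays (blue); points are arrays and short lines are group means. The widest gaps are at the left, for PRA1.B6 (7.83 and 7.39 against 9.17 and 8.93) and PRA1.B4. The groups do not overlap for any of the 13, nor for 64.5% of all probe sets. PRA1.F1 and ATSYP24 lie near the low end of the scale.

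The largest falls among the 13 genes were in the B branch of the PRA1 family. PRA1.B6, whose product has been described as a restraint on protein export from the endoplasmic reticulum to the Golgi, had values of 7.83 and 7.39 at low oxygen and 9.17 and 8.93 at normal oxygen. Both low oxygen arrays were thus more than 1 log2 unit below both normal oxygen arrays. The change was -1.44 (SE 0.17, 2.72-fold lower, limma adjusted p = 7.8e-04). PRA1.B4 stood at 8.25 and 7.88 at low oxygen, against 9.51 and 9.29 at normal oxygen. It fell by 1.34 (SE 0.15, 2.53-fold lower, limma adjusted p = 6.8e-04), and its groups were again about as far apart as those of PRA1.B6. In both genes replicate 1 was the higher array in each group, by 0.44 and 0.24 for PRA1.B6 and by 0.37 and 0.21 for PRA1.B4 at low and normal oxygen.

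PRA1.B1, the remaining measured gene of the B branch, did not follow them past the threshold. Its values were 9.04 and 8.93 at low oxygen and 9.28 and 9.10 at normal oxygen, so the groups came close to each other without overlapping. The change was -0.21, with a 95% interval from -0.47 to 0.05 (limma adjusted p = 0.2123). The intervals of PRA1.B6 (-1.84 to -1.04) and PRA1.B4 (-1.70 to -0.98) lie wholly below that of PRA1.B1, although the difference between the genes was not itself tested. Binding of transcripts of close relatives to these probe sets was not tested either.

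Both measured genes of the G branch fell. PRA1.G1 had 5.90 and 5.87 at low oxygen and 6.81 and 7.01 at normal oxygen, a change of -1.03 (SE 0.11, 2.04-fold lower, limma adjusted p = 5.5e-04). The low oxygen replicates were nearly the same, and the normal oxygen replicates differed by 0.20. PRA1.G2 stood at 6.48 and 6.60 at low oxygen and at 7.16 and 6.92 at normal oxygen. Its change of -0.50 (SE 0.12, 1.41-fold lower) passed with an adjusted p of 0.0179 in limma's test. That call ended without normal oxygen replicate 1 (adjusted p = 0.0720), without low oxygen replicate 1 (0.1081) and without low oxygen replicate 2 (0.0586), in a range over 11 alternatives that began at 0.0096.

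In the F branch the 3 measured genes ranged from a fall past the threshold to a change smaller than its SE. PRA8, also listed as PRA1.F3, had 9.39 and 9.20 at low oxygen and 10.08 and 10.25 at normal oxygen. It fell by 0.87 (SE 0.12, 1.83-fold lower, limma adjusted p = 0.0015), with the groups well apart. PRA7, also listed as PRA1.F2, had 8.70 and 8.48 at low oxygen and 8.83 and 8.77 at normal oxygen. Its change was -0.21, with a 95% interval from -0.48 to 0.07 (limma adjusted p = 0.2331), and the gap between the groups was smaller than that between its low oxygen replicates. PRA1.F1 lay between 4.41 and 4.52 on all 4 arrays, close to the lower quartile of all probe sets at 4.49, where RMA values have limited signal over background. Its change was -0.07 (95% interval -0.30 to 0.16, limma adjusted p = 0.6777). A further gene of this branch, PRA1.F4, shares its 2 probe sets with another gene and was left out.

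**Figure D2:**
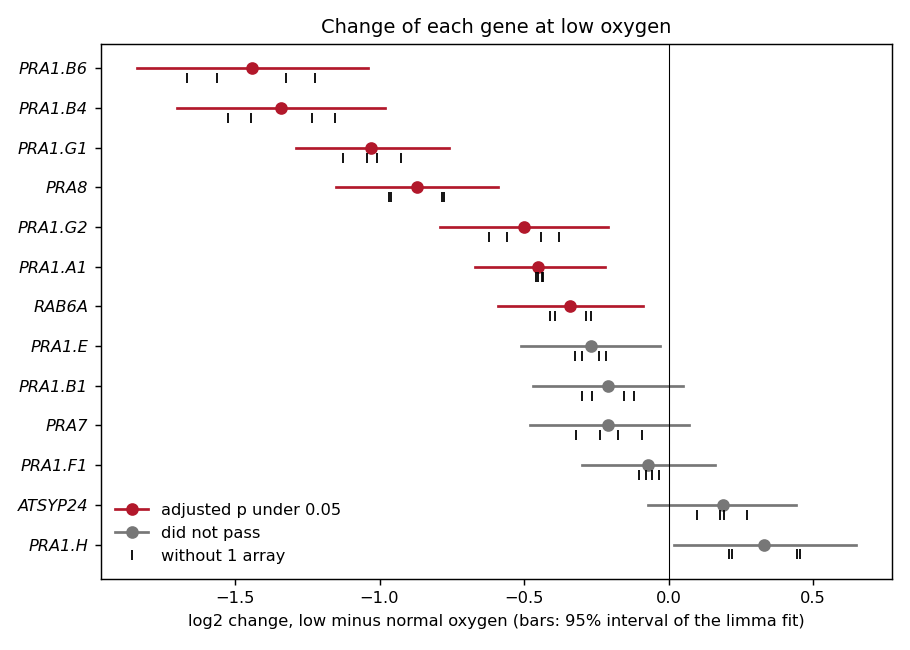
Log2 change of each gene, low minus normal oxygen (horizontal axis), with the 95% interval of the limma fit, not adjusted for multiple tests; red marks the 7 genes past an adjusted p of 0.05, and black ticks give the change without each array in turn. The ticks of PRA1.B6 run from -1.66 to -1.22 and those of PRA1.A1 only from -0.46 to -0.43, and no tick crosses 0.

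The A, E and H branches were each represented by 1 gene. PRA1.A1 had the tightest replicates of the 13 genes in terms of the larger of its 2 group SDs, at 8.47 and 8.50 at low oxygen and 8.92 and 8.94 at normal oxygen. It fell by 0.45 (SE 0.09, 1.36-fold lower, limma adjusted p = 0.0108). The call ended without low oxygen replicate 1 (adjusted p = 0.0614) and without low oxygen replicate 2 (0.0536), in a range over 11 alternatives that began at 0.0072, while the change itself stayed between -0.46 and -0.43 without any single array. PRA1.E had 8.44 and 8.33 at low oxygen and 8.68 and 8.63 at normal oxygen, a change of -0.27 (SE 0.10) that did not pass (limma adjusted p = 0.0841). When the arrays were quantile-normalised again, its change was -0.32 and its adjusted p was 0.0450.

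PRA1.H was the only PRA1 gene whose low oxygen arrays were the higher ones. Its values were 6.34 and 6.11 at low oxygen and 6.02 and 5.77 at normal oxygen. The lower of the low oxygen arrays was only just above the higher of the normal oxygen arrays. The change of 0.33 (SE 0.13, 95% interval 0.02 to 0.65) did not pass after adjustment (limma adjusted p = 0.1023). Across the PRA1 family as measured, 6 of 11 genes fell, 0 rose and 5 did not pass, with a median log2 change of -0.45. Among all named genes 16.3% fell.

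RAB6A, listed in RefSeq also as ATRABH1B, encodes a Rab GTPase of the Golgi, of the class that yeast and mammals call Rab6. It had values of 10.05 and 9.94 at low oxygen and 10.26 and 10.40 at normal oxygen. The groups were separate, with a gap wider than the difference between replicates in either group. Its change of -0.34 (SE 0.11, 1.27-fold lower) was just past the threshold in limma's test (adjusted p = 0.0483). The adjusted p ran from 0.0300 to 0.2075 over 11 alternatives, and the call ended in 7 of them: without each of the 4 arrays in turn (0.0520 without normal oxygen replicate 1, 0.1976 without normal oxygen replicate 2, 0.1024 without low oxygen replicate 1 and 0.2075 without low oxygen replicate 2), with a trended prior (0.0520), with the replicate number as a block (0.0856) and with median centring (0.0534).

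A second Rab gene, ARA6, carries a symbol outside the rule but is listed in RefSeq also as RABF1, and was looked up after the probe table was seen. It encodes a plant-specific Rab5-type GTPase of endosomes. It stood at 9.92 and 9.85 at low oxygen and at 9.90 and 10.00 at normal oxygen. The groups overlapped, and the change was -0.06 (95% interval -0.30 to 0.18, limma adjusted p = 0.7129).

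ATSYP24, annotated as syntaxin 24, was the only SNARE among the 13. It was near the low end of the scale on every array, with 4.23 and 4.40 at low oxygen and 4.12 and 4.14 at normal oxygen. The change was 0.19 (95% interval -0.07 to 0.44, limma adjusted p = 0.2457). Values this low carry no detection call, so no difference is read from them.

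**Figure D3:**
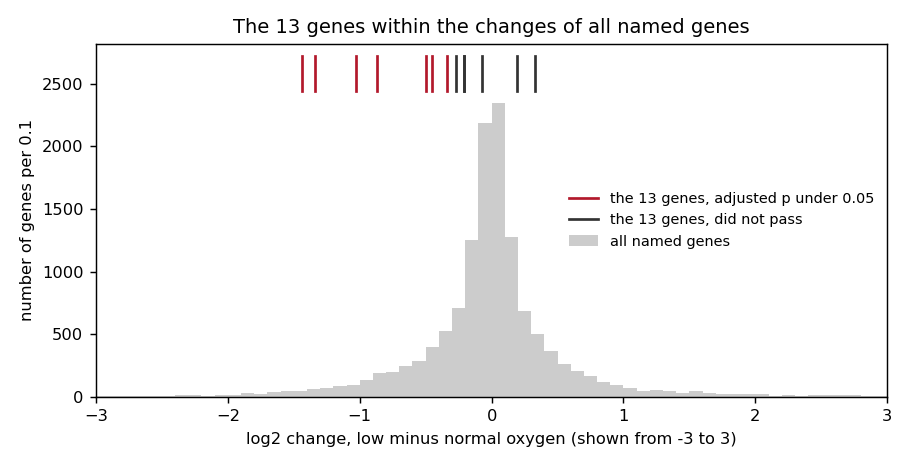
Number of named genes (vertical axis) by log2 change, low minus normal oxygen (horizontal axis, shown from -3 to 3), in grey, with a mark above for each of the 13 genes, red where the adjusted p was under 0.05. The marks run from -1.44 to 0.33, with 11 of them below 0, and the grey distribution has its median at -0.002.

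Within the distribution of all named genes, ordered from the largest fall to the largest rise, PRA1.B6 stood at percentile 2.1 and PRA1.B4 at 2.5. PRA1.G1 followed at 4.4 and PRA8 at 6.0. PRA1.B6, PRA1.B4 and PRA1.G1 were at least 2-fold lower, as were 5.32% of all probe sets. PRA1.H marked the upper end of the 13 genes, at percentile 84.1. Root hair genes also moved with the groups: of 6 markers 2 were measured, and both fell, EXPA18 with 7.58 and 6.70 at low oxygen against 10.69 and 10.65 at normal oxygen, and EXPA7 with 7.35 and 7.37 against 10.08 and 9.65. Summed on the linear scale, these 2 expansin genes gave log2 totals of 8.07 to 8.47 at low oxygen and 11.24 to 11.41 at normal oxygen. Their part in the falls of the PRA1 genes, and that of the higher RCA, was not tested.

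Other genes of vesicle traffic were read from 7 lists by symbol, of which the COPII list had no measured gene. Each gene counted once, 35 were measured, of which 7 rose, 7 fell and 21 did not pass, with a median log2 change of -0.03. In 3 of the 35 the RefSeq synonyms name another kind of protein (SLEEPY1, BAF60 and ARGOS-like), and without them 6 rose, 6 fell and 20 did not pass. Leaving out either low oxygen array gave fewer rises and fewer falls, among the 35 genes as among all probe sets. With all 4 arrays, 15.8% of all probe sets rose and 17.6% fell. The difference between these lists and the 13 genes above was not tested.

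Of 4 further SNARE genes, YKT61, ATYKT62, SEC22 and AtSec20, 0 passed in limma's test, against 33.4% of all probe sets. Only 1, AtSec20, had an unadjusted p under 0.05, with a change of -0.27, as was seen after the test. Such a p was found for 9482 of all 22746 probe sets. Counts over 4 genes are too small to set SNARE genes apart from other probe sets, and a difference was not tested. Of 5 genes on the list of Rab regulators and Sec1/Munc18 proteins, which clasp SNAREs during fusion, SEC1B rose by 0.77 (7.19 and 7.21 at low oxygen, 6.50 and 6.36 at normal oxygen, limma adjusted p = 0.0015). The gene with the symbol SLY1 on this list is SLEEPY1, an F-box protein of gibberellin signalling, and it fell by 0.42 (adjusted p = 0.0329), which did not hold when low oxygen replicate 1 (0.0688), low oxygen replicate 2 (0.1711) or normal oxygen replicate 2 (0.1399) was left out, or with the replicate block (0.0696).

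Of 7 measured genes of the exocyst, which tethers vesicles at the plasma membrane, 3 fell, against 17.6% of all probe sets, and 0 rose. Without low oxygen replicate 2 only SEC6 of the 3 still passed. SEC6 had 8.20 and 8.04 at low oxygen and 8.74 and 8.84 at normal oxygen (log2 change -0.67, limma adjusted p = 0.0034). SEC15A fell by 0.57 (adjusted p = 0.0208), which did not hold with low oxygen replicate 2 left out (-0.38, adjusted p = 0.0908). The third, SEC5B, fell by 0.36 (adjusted p = 0.0441), which did not hold with normal oxygen replicate 1 (0.1818), low oxygen replicate 1 (0.0944) or low oxygen replicate 2 (0.1992) left out or with a trended prior (0.0582). SEC5B lay between 5.28 and 5.78, so it was left out of the fit of probe sets averaging at least 6, in which 2 of the 7 fell. No exocyst gene was higher at an unadjusted p under 0.05, as were 4504 of all 22746 probe sets. A count of 0 among 7 genes does not set the exocyst apart. On the ARF list ARLA1B, an ARF-like GTPase gene, fell by 0.58 (adjusted p = 0.0106, and 0.0761 without low oxygen replicate 2). ARLA1A rose by 0.39 (adjusted p = 0.0448), and this call ended without low oxygen replicate 1 (0.1717), low oxygen replicate 2 (0.1426) or normal oxygen replicate 1 (0.1972), with the replicate block (0.0693), with a trended prior (0.0589) and with quantile normalization repeated (0.0507). The gene with the symbol ARL on the same list is ARGOS-like, a growth regulator, and it rose by 2.03 (adjusted p = 5.5e-04). The dynamin-like gene DL1B fell by 0.48 (adjusted p = 0.0231), which did not hold with low oxygen replicate 2 (0.1229) or normal oxygen replicate 1 (0.0665) left out.

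On the list of vacuolar sorting, ESCRT and retromer genes, 4 of 12 rose (15.8% of all probe sets were higher), 1 fell and 7 did not pass. The rises of ELC and VPS2.1 passed without any single array. VPS20.1 rose by 0.47 (limma adjusted p = 0.0093), and its call ended without low oxygen replicate 1. VPS60.1 rose by 0.42 (limma adjusted p = 0.0147). Its call ended without low oxygen replicate 1, low oxygen replicate 2 or normal oxygen replicate 2. Without any single array the change of VPS20.1 stayed between 0.44 and 0.50, and that of VPS60.1 between 0.40 and 0.44. The ESCRT machinery sorts membrane proteins into the multivesicular bodies that fuse with the vacuole. Its subunit gene ELC had 8.99 and 8.81 at low oxygen and 7.96 and 7.71 at normal oxygen (log2 change 1.06, SE 0.13, limma adjusted p = 9.0e-04). VPS2.1 stood at 9.83 and 9.72 at low oxygen and at 9.19 and 9.20 at normal oxygen (log2 change 0.58, adjusted p = 0.0043). MAG2, which acts in transport of storage proteins out of the endoplasmic reticulum, fell by 0.53 (adjusted p = 0.0053).

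**Figure D4:**
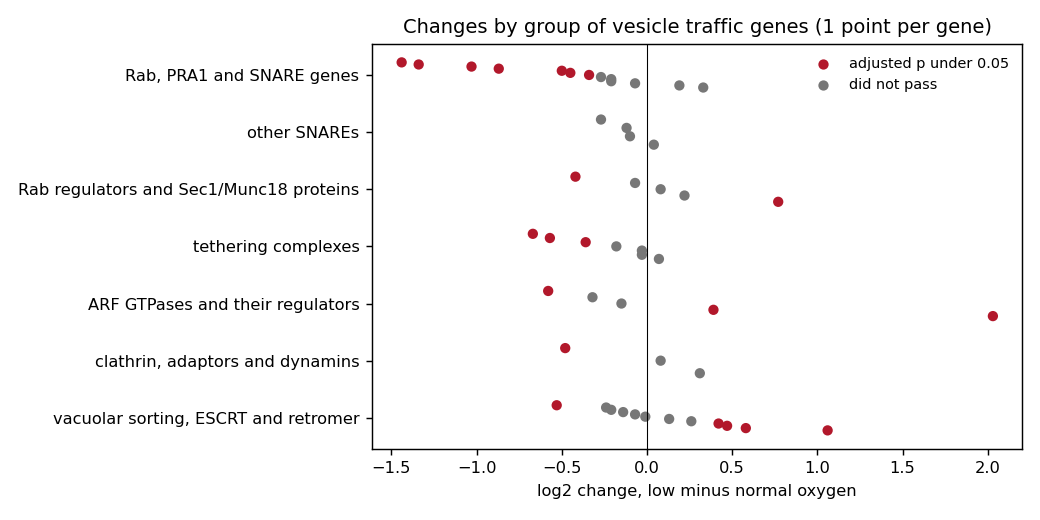
Log2 change, low minus normal oxygen (horizontal axis), of the 13 genes in the top row and of the other measured vesicle traffic genes by list below; each point is a gene, red where the adjusted p was under 0.05. The lower rows include SLY1 (SLEEPY1, red), ARL (ARGOS-like, red) and CHC1 (BAF60), whose synonyms name another kind of protein. VPS9B is drawn both with the Rab regulators and with the vacuolar sorting genes. The top row has 7 red points, each of them below 0. The vacuolar sorting and ESCRT row at the bottom has 4 red points above 0 and 1 below. With all 4 arrays, 15.8% of all probe sets were higher and 17.6% lower. The calls of VPS20.1 and VPS60.1 in the bottom row did not hold without low oxygen replicate 1.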

How the data were processed

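The deposited table gives log2 expression values per probe set and array. The log2 values are taken as RMA output of the authors, because RMA stands beside limma in the submitters' processing notes, with no version or setting. RMA makes the arrays alike, which hides a shift common to all transcripts. Biotin-labelled cRNA was made from 7 ug of total RNA, per the labels' protocols.

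Of 22810 probe sets, 64 controls were left out. Gene names came from the probe table of the platform, updated through RefSeq (TAIR10.1). A name was given to the 13513 probe sets with 1 gene, and to none of the 503 with several or of the 8730 outside the table. Low minus normal oxygen was tested in R 4.3.3 by limma 3.58.1 (eBayes after lmFit, 2-sided, no block, 2 residual and 4.63 prior degrees of freedom), with Benjamini-Hochberg adjustment over 22746 probe sets. The fit was tested on simulated data. SEs and 95% intervals come from the fit. Alternatives changed the prior, block, normalization, level filter, threshold, probe sets per gene and arrays.

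Members and lists were chosen with earlier results of these data known. Each member past the threshold was named with its value on every array, with the most abundant other member and the lowest. The remaining members were added so that all are accounted for. Other lists show up to 2 genes per direction by size of change. SEC5B, VPS20.1, VPS60.1 and the further SNARE genes were named besides.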

Additional observations from a re-analysis of the deposited data

How the results depend on the processing

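With 2 arrays per group, calls near the threshold were open to the processing. Changing the prior, block, threshold, level filter or probe sets per gene left each log2 change of the 13 genes as it was. A sign could therefore turn only with another normalization or without an array. No change of any of the 13 genes turned its sign in 154 comparisons with an alternative. Of these, 138 kept their side of the threshold, 15 lost a call (of PRA1.G2, PRA1.A1 or RAB6A) and 1 gained it. PRA1.B6, PRA1.B4, PRA1.G1 and PRA8 passed in each of 11 alternatives. The count of 7 falls became 4 at an adjusted p under 0.01 and 3 when a 2-fold change was also required, and lay between 4 and 6 with any array left out. The corresponding counts were 7 and 2 for the 14 calls among other traffic genes, which lay between 7 and 12 with any array left out. Over all probe sets, 3999 were lower, 2701 at an adjusted p under 0.01 and 1211 with the 2-fold limit. In either direction, 2385 of 7593 calls also met the 2-fold limit. The median change of the 13 genes, -0.339, was -0.446 over the 11 genes whose higher group averaged 6 or more and over the PRA1 genes alone, a choice made after seeing the data. A stricter limit on the same fit can only lower a count. The median moved with the genes left out, as the changes of the other genes stayed the same. Why calls were lost with fewer arrays was not tested. The groups use the same replicate numbers, but deviations of same-numbered arrays were hardly correlated (r = 0.0239 across probe sets). With the replicate block, 6 of the 13 genes and 6939 probe sets passed. Each gene had 1 probe set, so averaging probe sets changed no value of the 13 genes, and no gene of another protein kind had to be removed from them. The planned setting for linear data was not run, as the values are log2. A lone array was assumed to vary like the other group. Signal over background limits PRA1.F1 and ATSYP24.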
